A study of Saccharomyces cerevisiae with 12 samples.

Results

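The genes described here encode ribosome assembly factors of budding yeast whose names begin with UTP, NOP or RRP followed by a number. They were taken by that name rule from the protein-coding rows of the expression table, which gave 53 genes (18 UTP, 17 NOP and 18 RRP) of 6692 protein-coding genes and 7126 genes in all. All 53 passed the filter on low values and were tested. Transcript levels were measured by RNA sequencing in the haploid laboratory strain BY4741, as wild type and as an slt2 mutant in the same background. BY4741 is of mating type a and lacks HIS3, LEU2, MET17 (MET15) and URA3, so all groups share these deletions. SLT2 encodes the MAP kinase of the cell wall integrity pathway. Each strain was sampled untreated and after 1 h with 100 µg/ml poacic acid, a plant stilbenoid that binds cell wall glucan, which gave 4 groups of 3 libraries (n = 3 throughout). The labels name the mutation only as slt2 and do not say whether the mutant is 1 clone. Levels are given in RPKM, mapped reads scaled by gene length and by library total, so they can be compared between genes.

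Ribosome assembly starts in the nucleolus, where a long precursor rRNA is transcribed, folded, modified and cut. UTP proteins are mostly subunits of the small-subunit processome, the large particle that forms on the new transcript and matures the small-subunit rRNA. NOP is a general name for nucleolar proteins and covers snoRNP core proteins, which guide rRNA modification, and factors for both subunits. RRP stands for rRNA processing and is shared by assembly factors and by subunits of the exosome, the complex that degrades and trims RNA from its 3′ end. In growing yeast these genes are known to be transcribed in parallel with ribosomal protein genes and to be turned down under many stresses. By textbook assignment the 53 genes held 6 subunits of the UTP-A complex, 4 of UTP-B, 2 of UTP-C (UTP22 and RRP7), 16 other small-subunit factors, 13 large-subunit factors, 4 proteins of box C/D snoRNPs, 1 of box H/ACA snoRNPs and 7 exosome subunits, the last all named RRP.

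The libraries matched their strain labels. SLT2 read 42.1 to 50 RPKM in untreated wild type, 194 to 236 RPKM in treated wild type and 0 to 0.198 RPKM in the slt2 libraries, and LEU2 was at 0 in all 12. MET17 reached at most 0.134 RPKM, and URA3 was at 0 apart from 0.647 RPKM in treated slt2 replicate 1. The mating type a receptor gene STE2 read 107 to 331 RPKM, against 0.293 to 2.02 RPKM for its alpha counterpart STE3. Depth, worked out from the steps between low RPKM values, was 3462643 to 10542500 reads per library, and a UTP, NOP or RRP gene held between 22 reads (RRP36 in treated slt2 replicate 2) and 7700 reads. The share of rRNA in the listed values was 0.085 to 0.682% in untreated wild type, 0.0979 to 4.84% in treated wild type and 4.54 to 6.21% in the slt2 libraries. The treated wild-type libraries differed among themselves. The rRNA share was 2.48, 0.0979 and 4.84% in replicates 1 to 3, and the correlation of a library's deviations over all genes with GC content was −0.06, −0.45 and 0.32. Replicate 3 was the lowest library of the group for 33 of the 53 genes and replicate 2 the highest for 28. In treated slt2 cells replicate 2, the shallowest library, was the lowest for 31 of the 53. The part of these differences in the results was not tested, and counts without each library are given beside the results.

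The 53 genes spanned a 26.3-fold range of level in untreated wild type. Their median was 52.8 RPKM, against 23.0 RPKM over all 6222 genes tested. NOP1, the methyltransferase of box C/D snoRNPs known as fibrillarin in animals, was highest at 445 ± 65 RPKM (mean ± SD, n = 3), and it led in every group. NOP56 (268 ± 36 RPKM), NOP7 (200 ± 30 RPKM) and NOP58 (192 ± 18 RPKM) came next, and the replicate ranges of NOP7 (176 to 234 RPKM) and NOP58 (175 to 211 RPKM) overlapped. RRP36 was lowest at 16.9 ± 1.4 RPKM, just under NOP8 (18.1 ± 2.5 RPKM), a large-subunit factor, and these neighbours overlapped too. UTP genes covered a narrow range, from UTP30 at 20.4 ± 3.7 RPKM to UTP10 at 65.4 ± 8.6 RPKM. Averaged over all 12 libraries UTP14, whose product activates the pre-rRNA helicase Dhr1, was the highest UTP gene at 56.4 RPKM, close to UTP5 and UTP7 (55.5 RPKM each). The 7 exosome genes lay closer still, from RRP46 (37.7 ± 6.4 RPKM) to RRP42 (53.2 ± 7.3 RPKM), and neighbours in their order overlapped.

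Some of these transcripts were called lower in wild-type cells with poacic acid and none was called higher. The question here was whether assembly factor genes respond to the compound. Of the 53 genes 10 fell (18.9%) and 0 rose, against 5.83% of all tested genes called in either direction and 1.96% called lower (limma on log2(RPKM + 1), Benjamini-Hochberg adjusted p under 0.05 over all 6222 genes). The median log2 fold change of the 53 was −0.37 against 0.02 for all genes, and 50 of the 53 estimates were negative against 46.5% of all genes. Every treated library lay below every untreated library for 22 of the 53, which holds for 9.39% of all genes. The members' share of the summed coding RPKM was 0.487 to 0.551% untreated and 0.418 to 0.46% treated. Because these are bulk RNA samples scaled to the library total, fewer transcribing cells and less RNA per cell cannot be told apart.

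**Figure D1:**
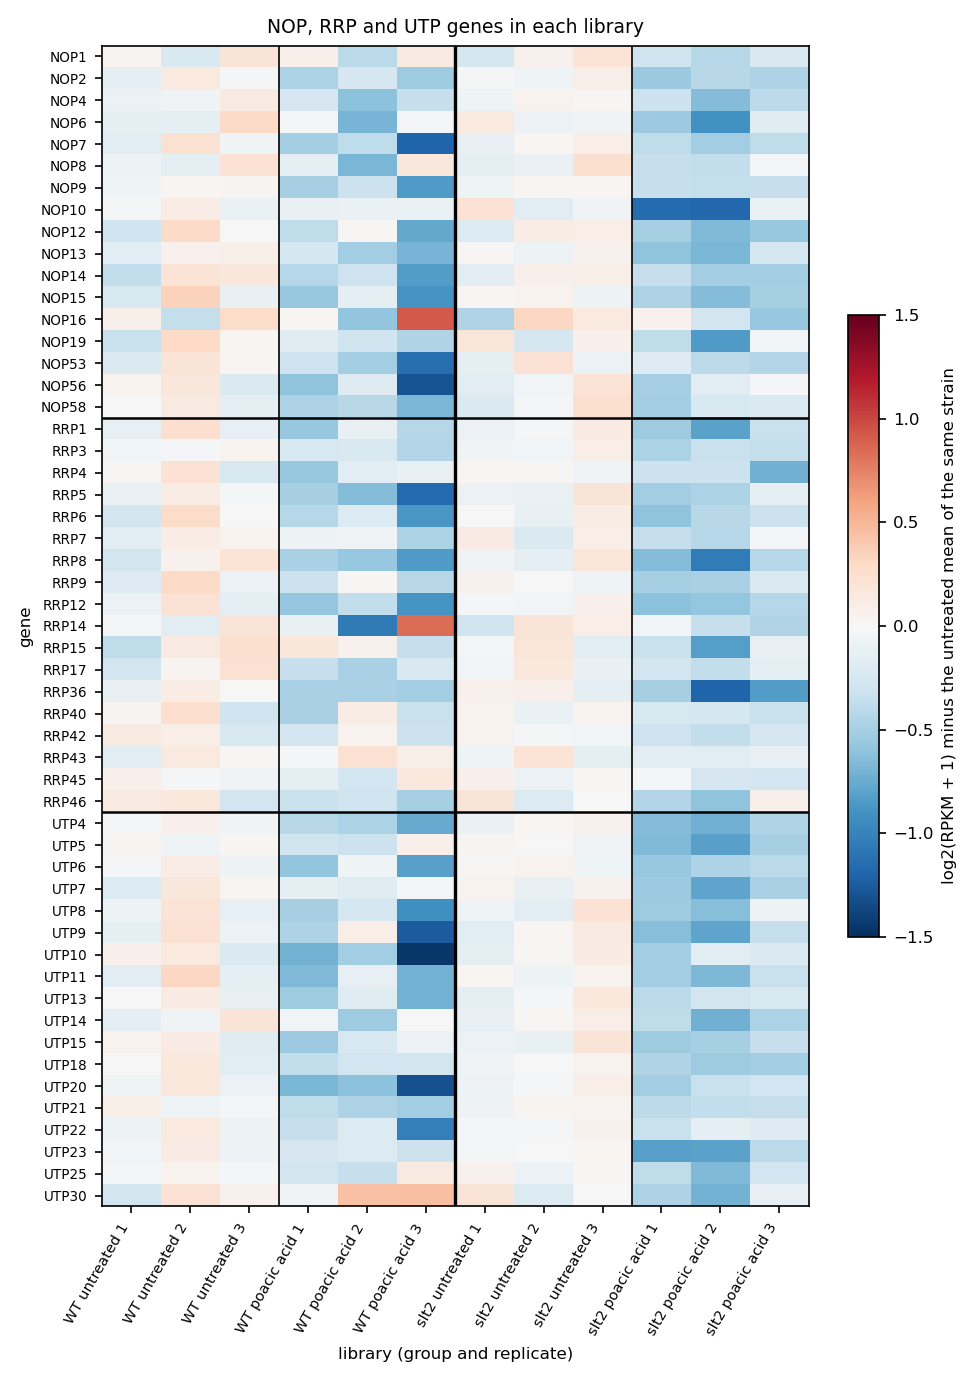
Each column is 1 library and each row 1 gene, sorted by name class. Colour is log2(RPKM + 1) minus the mean of the untreated libraries of the same strain, from −1.5 (dark blue) to 1.5 (dark red). Most cells of the 6 treated libraries are blue, the darkest wild-type column is treated replicate 3, and the exosome rows RRP43 and RRP45 are pale in both strains.

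In wild type 4 UTP genes fell, UTP20, UTP10, UTP4 and UTP21. UTP20, a large component of the small-subunit processome (II 227636–235117, plus strand, R64 as all coordinates here), read 62.0, 72.5 and 61.2 RPKM untreated and 40, 42.1 and 25.5 RPKM treated. The groups did not overlap, and the lowest value was treated replicate 3. Its log2 fold change was −0.88 (SE 0.17, adjusted p = 0.007, limma with Benjamini-Hochberg correction), and it was the single wild-type call that held with each of the 12 libraries left out in turn (adjusted p at most 0.0432). UTP10, the largest subunit of UTP-A (X 212000–217309, minus strand), read 68.6, 71.9 and 55.7 RPKM and then 39.4, 45.0 and 23.0 RPKM. All 3 treated libraries were lower, again lowest in replicate 3, with a log2 fold change of −0.90 (SE 0.21, adjusted p = 0.0209, limma with Benjamini-Hochberg correction). UTP4, also of UTP-A (IV 1114433–1116763, minus strand), read 41.1, 44.3 and 40.1 RPKM and then 31.0, 29.9 and 24.3 RPKM, a log2 fold change of −0.55 (SE 0.13, adjusted p = 0.0208, limma with Benjamini-Hochberg correction). UTP21 of UTP-B (XII 934414–937233, minus strand) had the tightest values, 54.4, 49.1 and 50.2 RPKM untreated and 39.0, 36.8 and 35.4 RPKM treated. It fell by 0.46 on the log2 scale (SE 0.1, adjusted p = 0.0192, limma with Benjamini-Hochberg correction). The calls of UTP4, UTP10 and UTP21 were lost without untreated replicate 1, without untreated replicate 2 and without treated replicate 3, with adjusted p up to 0.101, 0.101 and 0.0809.

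The 4 NOP genes that fell in wild type act on both subunits. NOP7, a large-subunit factor (VII 695417–697234, plus strand), read 176, 234 and 191 RPKM untreated and 139, 152 and 86.0 RPKM treated, a log2 fold change of −0.70 (SE 0.18, adjusted p = 0.0372, limma with Benjamini-Hochberg correction). NOP9, which binds pre-rRNA of the small subunit (X 417562–419562, minus strand), read 31.9, 34.1 and 34.3 RPKM and then 23.4, 26.5 and 18.1 RPKM. Its untreated values were close together, and its log2 fold change was −0.56 (SE 0.13, adjusted p = 0.0271, limma with Benjamini-Hochberg correction). NOP58, a core protein of box C/D snoRNPs (XV 896825–898360, minus strand), went from 191, 211 and 175 RPKM to 139, 143 and 119 RPKM, with a log2 fold change of −0.52 (SE 0.14, adjusted p = 0.0403, limma with Benjamini-Hochberg correction). YOR309C overlaps 16.5% of NOP58 on the same strand, so the division of reads between them is uncertain. NOP2, a methyltransferase of the large-subunit rRNA (XIV 510540–512396, plus strand), went from 107, 130 and 116 RPKM to 84.0, 98.6 and 81.0 RPKM, with a log2 fold change of −0.42 (SE 0.12, adjusted p = 0.049, limma with Benjamini-Hochberg correction). No treated library of these 4 genes reached the untreated range. All 4 calls were lost without untreated replicate 1, untreated replicate 2 or treated replicate 3, NOP2 in 11 of the 12 leave-one-out fits, NOP7 in 8, NOP58 in 6 and NOP9 in 4 (adjusted p up to 0.209, 0.167, 0.174 and 0.104).

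Among RRP genes RRP5 and RRP12 fell in wild type. RRP5, needed for early cuts on the way to both subunits (XIII 725934–731123, minus strand), read 141, 164 and 150 RPKM untreated and 107, 96.1 and 66.8 RPKM treated, a log2 fold change of −0.77 (SE 0.17, adjusted p = 0.0156, limma with Benjamini-Hochberg correction). It was the most abundant RRP transcript in every group. RRP12, a factor for export of the new subunits (XVI 529723–533409, plus strand), read 67.5, 83.2 and 65.4 RPKM and then 47.4, 55.3 and 38.4 RPKM, a log2 fold change of −0.61 (SE 0.14, adjusted p = 0.0217, limma with Benjamini-Hochberg correction). Both were lost without untreated replicate 2 (adjusted p = 0.0805 and 0.116) and without treated replicate 3, and RRP12 also without untreated replicate 1. RRP8, a methyltransferase of the large-subunit rRNA, stopped just short of the threshold, with 38.1, 48.6 and 53.7 RPKM untreated, 32.8, 30.9 and 25.2 RPKM treated and an estimate of −0.64 on the log2 scale (SE 0.18, adjusted p = 0.0522). RRP36, which acts in early cuts for the small-subunit rRNA, read 15.6, 18.4 and 16.8 RPKM and then 11.8, 11.8 and 11.6 RPKM (−0.49, adjusted p = 0.104).

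The number of wild-type calls rested on a few libraries. It was 1 without untreated replicate 2 (2.51% of all genes called in that fit, against 5.83% with all libraries), 1 without treated replicate 3 (2.75%), 4 without untreated replicate 1 (2.64%) and 19 without treated replicate 2 (8.88%). The share of all genes called moved in the same direction each time. The median log2 fold change of the 53 genes ranged from −0.45 without untreated replicate 1 to −0.32 without untreated replicate 2, and was −0.36 without treated replicate 3.

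In slt2 cells 15 of the 53 genes fell with poacic acid (28.3%) and 0 rose. Of all tested genes 8.45% were called in either direction and 3.17% lower (limma, Benjamini-Hochberg adjusted p under 0.05). The median log2 fold change was −0.43 against 0.03 for all genes, and all 53 estimates were negative, from −0.15 for RRP43 to −0.85 for RRP36. The groups did not overlap, with the treated libraries lower, for 39 of the 53, against 12.8% of all genes. The 15 were 6 UTP genes, 4 NOP genes and 5 RRP genes. The members' share of the summed coding RPKM was 0.455 to 0.503% untreated and 0.366 to 0.407% treated.

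UTP23 led the UTP genes in slt2. This small-subunit processome factor (XV 333592–334356, plus strand) read 44.1, 44.6 and 45.5 RPKM untreated and 25, 25.3 and 33.5 RPKM treated. All treated values were below the untreated ones, which lay close together, and the log2 fold change was −0.67 (SE 0.13, adjusted p = 0.00466, limma with Benjamini-Hochberg correction). UTP5 of UTP-A (IV 1267471–1269402, plus strand) read 68.0, 66.0 and 63.6 RPKM and then 41.2, 37.1 and 46.3 RPKM, a log2 fold change of −0.66 (SE 0.13, adjusted p = 0.00636, limma with Benjamini-Hochberg correction). UTP4 went from 31.0, 34.0 and 34.6 RPKM to 20.7, 19.8 and 24.0 RPKM (−0.60, SE 0.13, adjusted p = 0.00912). UTP7, a small-subunit processome protein (V 324272–325936, minus strand), went from 63.6, 56.8 and 64.1 RPKM to 41.9, 35.2 and 43.6 RPKM (−0.60, SE 0.13, adjusted p = 0.0099). The UTP-B genes UTP18 (44.0 ± 1.7 to 30.8 ± 0.85 RPKM, −0.50, adjusted p = 0.0133) and UTP21 (42.5 ± 2.1 to 32.6 ± 0.47 RPKM, −0.37, adjusted p = 0.0407) completed the 6, whose groups were all apart. UTP23 and UTP5 held with any 1 library left out. UTP4 lost its call without treated slt2 replicate 2 (adjusted p = 0.0559), UTP7 and UTP18 without treated replicate 2 (0.0633 and 0.0644) or untreated replicate 3 (0.0516 and 0.0679), and UTP21 in 7 of the 12 leave-one-out fits (up to 0.156, without untreated replicate 3).

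The NOP genes that fell in slt2 were NOP2, NOP13, NOP10 and NOP4. NOP2 read 101, 98.2 and 109 RPKM untreated and 69.6, 76.4 and 74.0 RPKM treated, a log2 fold change of −0.48 (SE 0.12, adjusted p = 0.0195, limma with Benjamini-Hochberg correction). NOP10, a small core protein of box H/ACA snoRNPs, which guide pseudouridine formation (VIII 241664–241840, plus strand), read 117, 89.6 and 97.2 RPKM and then 44.8, 44.1 and 93.9 RPKM. Its treated replicate 3 stayed within the untreated range, so its groups overlapped although its log2 fold change of −0.81 was the largest of the class (SE 0.23, adjusted p = 0.0409, limma with Benjamini-Hochberg correction). At 177 bases it is the shortest of the 53 genes and carries few reads. NOP13, a nucleolar RNA-binding protein (69.7 ± 3.4 to 48.8 ± 8.0 RPKM, −0.52, adjusted p = 0.0388), and NOP4, a large-subunit factor (69.6 ± 2.9 to 50.7 ± 6.1 RPKM, −0.46, adjusted p = 0.0456), are each overlapped by a gene on the other strand, over 44.5% and 26% of their length. Without treated slt2 replicate 2 NOP10, NOP13 and NOP4 lost their calls (adjusted p = 0.198, 0.182 and 0.222; 6 to 10 of the 12 leave-one-out fits in all), and NOP2 lost its call without untreated replicate 3 (0.0935) and 3 other slt2 libraries.

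RRP36 had the largest decrease of all 53 genes in slt2 (XV 850937–851839, minus strand). It read 18.3, 18.5 and 15.8 RPKM untreated and 12.1, 7.04 and 9.32 RPKM treated, with no overlap, and the log2 fold change was −0.85 (SE 0.17, adjusted p = 0.00667, limma with Benjamini-Hochberg correction, at most 0.0355 with a library left out). RRP8 (IV 612073–613251, plus strand) read 37.1, 35.1 and 43.9 RPKM and then 24.1, 18.1 and 28.5 RPKM (−0.71, SE 0.18, adjusted p = 0.0251). RRP12 read 55.1, 55.0 and 59.4 RPKM and then 36.5, 37.5 and 41.6 RPKM (−0.54, SE 0.14, adjusted p = 0.0308). In both genes every treated value was below every untreated one. The helicase gene RRP3 went from 35.8 ± 2.2 to 27.1 ± 1.5 RPKM (−0.39, adjusted p = 0.0451) and RRP1, a large-subunit factor, from 48.4 ± 3.6 to 32.8 ± 5.5 RPKM (−0.56, adjusted p = 0.0461). Without treated slt2 replicate 2 RRP8 and RRP1 lost their calls (adjusted p = 0.138 and 0.223), and without untreated replicate 3 RRP12 and RRP3 did (0.12 and 0.189). In all these 4 calls were lost in 4 to 10 of the 12 leave-one-out fits each.

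The count of 15 was 3 without treated slt2 replicate 2 (3.71% of all genes called, against 8.45% with all libraries), 4 without untreated replicate 3 (3.86%), 6 without untreated replicate 1 (5.61%), 6 without treated replicate 1 (4.45%) and 8 without untreated replicate 2 (5.73%). It was 24 without treated wild-type replicate 3 (10.3%), which enters through the shared estimate of spread. The median log2 fold change of the 53 genes ranged from −0.49 without treated slt2 replicate 3 to −0.37 without treated replicate 2.

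All 3 name classes had negative medians in both strains. In wild type the median log2 fold change was −0.47 for UTP genes (4 of 18 called), −0.42 for NOP genes (4 of 17) and −0.30 for RRP genes (2 of 18). In slt2 the medians were −0.47 (6 of 18), −0.43 (4 of 17) and −0.38 (5 of 18). All genes tested had medians of 0.02 in wild type and 0.03 in slt2, with 1.96 and 3.17% called lower. Single genes within a class had interquartile ranges of 0.27 to 0.32 in wild type and 0.17 to 0.19 in slt2. No test between classes was made. Within the UTP genes UTP-A had medians of −0.54 and −0.53 in the 2 strains and UTP-B −0.47 and −0.42. Large-subunit factors had medians of −0.38 and −0.43 (2 and 4 of 13 called) and the other small-subunit factors −0.40 and −0.48 (4 and 6 of 16), so genes for both subunits were among those that fell. RRP8 was listed with the small-subunit factors, although it modifies the large-subunit rRNA. The 4 box C/D proteins ranged in wild type from NOP1 (−0.07, adjusted p = 0.864) to NOP56 (−0.70, adjusted p = 0.0906).

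**Figure D2:**
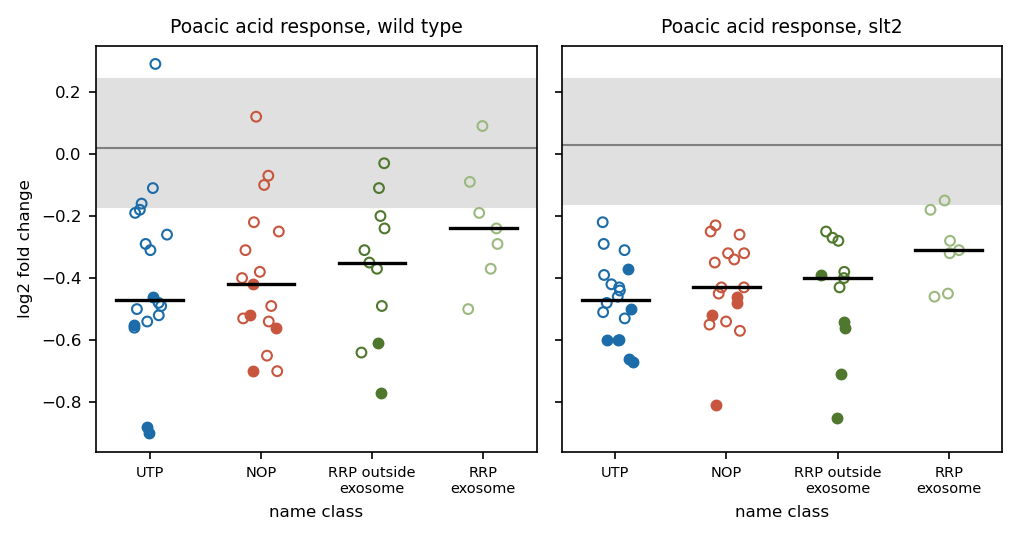
Points are genes, placed by log2 fold change with poacic acid in wild type (left) and slt2 (right); filled points passed the test and open points did not. Black bars are medians (n = 18, 17, 11 and 7 genes), the grey line is the median of all 6222 genes tested and the grey band their interquartile range. No exosome point is filled in either strain, and all points of the other classes lie below the grey band in slt2.

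The exosome subunits had smaller median changes than the other RRP genes. None of the 7 passed in either strain, and their medians were −0.24 and −0.31, against −0.35 and −0.40 for the 11 other RRP genes, of which 2 and 5 passed. Of all genes tested 1.96% were called lower in wild type and 3.17% in slt2. At these shares 0 calls among 7 genes is no result about the exosome. RRP43, a subunit of the exosome ring (III 191834–193018, minus strand), read 44.5, 55.5 and 50.8 RPKM in untreated and 49.0, 58.8 and 53.1 RPKM in treated wild type, so the groups overlapped (0.09, adjusted p = 0.733). RRP45, another ring subunit (IV 1020747–1021664, plus strand), read 49.6 ± 2.3 and 46.9 ± 7.6 RPKM in wild type (−0.09, adjusted p = 0.746) and 49.2 ± 2.8 and 43.3 ± 4.6 RPKM in slt2 (−0.18, adjusted p = 0.453). The cap subunit genes RRP4 (−0.29 and −0.46) and RRP40 (−0.24 and −0.28) and the ring genes RRP42 (−0.19 and −0.31) and RRP46 (−0.37 and −0.32) lay between. RRP6, the nuclear exonuclease of the complex, had the lowest wild-type estimate (48.7 ± 9.4 and 34.3 ± 8.0 RPKM, −0.50, adjusted p = 0.116). Of 7 exosome genes with other names 1 fell in wild type, the helicase gene MTR4 (79.1 ± 2.3 to 56.4 ± 4.2 RPKM, −0.48, adjusted p = 0.0193), and 0 in slt2, where MTR4 had an adjusted p of 0.052 (limma with Benjamini-Hochberg correction). No test of the exosome against the other RRP genes was made, so they are not shown to differ.

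The 4 genes called in both strains were UTP4, UTP21, NOP2 and RRP12. They were 40% of the wild-type calls and 26.7% of the slt2 calls, and 21 genes were called in at least 1 strain. All 21 had negative estimates in both strains, and for 20 of the 53 genes the treated libraries were all below the untreated ones in both. Taken singly, this held for 9.39% of all genes in wild type and 12.8% in slt2. The shares of all genes called in both strains, or lower in all treated libraries of both, were not counted. The difference of the 2 responses passed for 0 of the 53 genes, against 1.72% of all genes called and 0.996% called lower (limma with Benjamini-Hochberg correction). An unadjusted p under 0.05 (limma) was reached by 5 of the 53 and by 743 of all 6222 genes. UTP20, called in wild type, had a response that was higher by 0.49 on the log2 scale in slt2 (SE 0.23, adjusted p = 0.444), since it read 41.5, 43.2 and 46.8 RPKM and then 30.1, 34.4 and 35.6 RPKM there (−0.39, adjusted p = 0.187). UTP10 had the largest positive difference (0.60, SE 0.29, adjusted p = 0.452) and UTP30, a relative of a large-subunit ribosomal protein, the largest negative one (−0.72, SE 0.28, adjusted p = 0.296). NOP10 (−0.71, SE 0.32, adjusted p = 0.396), UTP7 (−0.49, SE 0.18, adjusted p = 0.265) and UTP5 (−0.47, SE 0.18, adjusted p = 0.303) followed. With SEs of this size these differences did not pass, although they were of the order of the responses themselves. The absence of calls therefore does not show that the responses were equal. How large a difference could be detected was not tested. Without treated slt2 replicate 3 the count was 1 of the 53, near the 2.0% of all genes called in that fit.

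**Figure D3:**
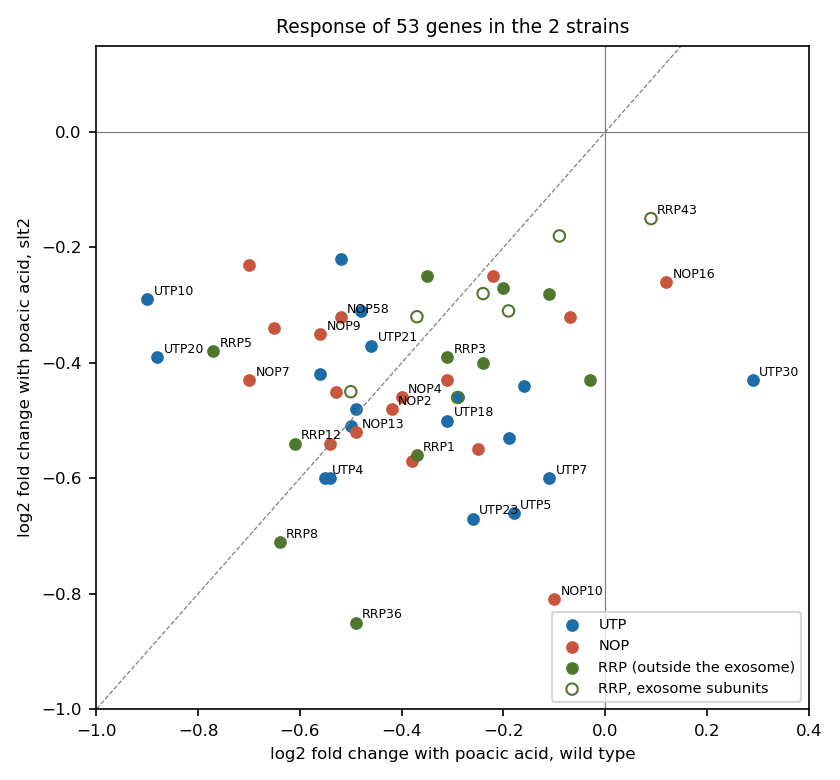
Each point is 1 of the 53 genes, with its log2 fold change in wild type on the x axis and in slt2 on the y axis; the dashed line marks equal responses. Every point lies below 0 on the y axis and 50 of 53 lie left of 0 on the x axis. UTP10, UTP20 and RRP5 lie far to the left and NOP10, UTP5, UTP7 and UTP23 far below the dashed line.

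Between untreated strains 0 of the 53 genes passed, against 1.75% of all genes called and 0.868% called lower (limma with Benjamini-Hochberg correction). An unadjusted p under 0.05 (limma) was reached by 24 of the 53 and by 1509 of all 6222 genes. Most estimates were nevertheless negative, with 41 of 53 below 0 and a median of −0.25 in slt2 against wild type, where the median of all genes was −0.08. The slt2 libraries were all lower for 23 of the 53 (43.4%), against 23.8% of all genes. UTP10 was 68.6, 71.9 and 55.7 RPKM in wild type and 35.0, 39.1 and 42.4 RPKM in slt2, and these groups did not overlap (−0.73, adjusted p = 0.0778). NOP53 (52.8 ± 7.6 and 33.2 ± 4.7 RPKM, −0.65, adjusted p = 0.0831) and NOP56 (268 ± 36 and 164 ± 22 RPKM, −0.70, adjusted p = 0.102) were similar, while RRP14 was higher in all slt2 libraries (22.1 ± 2.9 and 40.3 ± 7.1 RPKM, 0.83, adjusted p = 0.176). RRP14 and NOP56 overlap genes on the other strand over 39.2% and 21.5% of their length. The count was 10 without treated wild-type replicate 3 (9 lower and 1 higher, with 9.72% of all genes called), 5 without treated wild-type replicate 2 (4 lower and 1 higher, 7.89%), and 10 when only the untreated libraries were fitted (8 lower and 2 higher, 11.7%). Untreated wild type and untreated slt2 also differed in rRNA share (0.085 to 0.682% and 4.54 to 6.21%) and in the correlation of library deviations with GC content (−0.26 to −0.38 and 0.17 to 0.31), which cannot be told apart from the strain here. With the rRNA share as a covariate the median of the 53 was −0.02 and that of all genes 0.01.

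Under treatment 6 genes were lower in slt2 than in wild type (11.3%): RRP43, UTP7, RRP7, RRP42, UTP23 and UTP30, against 8.21% of all genes called and 4.23% called lower (limma with Benjamini-Hochberg correction). RRP43 read 49.0, 58.8 and 53.1 RPKM in treated wild type and 33.5, 33.4 and 34.6 RPKM in treated slt2 (−0.65, SE 0.13, adjusted p = 0.00518). It was the single one of the 6 to hold with any library left out (adjusted p at most 0.0252), and it was already lower without the compound (50.2 ± 5.5 and 37.9 ± 5.0 RPKM, −0.40, adjusted p = 0.0979). UTP7 read 56.7, 54.7 and 61.5 RPKM and 41.9, 35.2 and 43.6 RPKM (−0.51, adjusted p = 0.0221). RRP7 of UTP-C (III 64675–65568, minus strand) read 83.0, 84.7 and 62.6 RPKM and 47.8, 45.2 and 60 RPKM (−0.58, adjusted p = 0.0336). The other estimates were −0.50 for RRP42, −0.47 for UTP23 and −0.72 for UTP30 (adjusted p = 0.0342 each), and in none of the 6 genes did the groups overlap. UTP30 read 19.5, 27.9 and 28.1 RPKM in treated wild type and 14.3, 11.9 and 18.4 RPKM in treated slt2, where untreated levels were alike (20.4 ± 3.7 and 20.3 ± 3.0 RPKM). The 5 other calls were each lost without at least 3 of the libraries, among them treated slt2 replicates 1 and 2 (adjusted p up to 0.119 to 0.159). The count was 1 without either of those (5.28% and 5.42% of all genes called), 2 without treated wild-type replicate 1 or 2 (6.21% and 6.46%), and 14 without treated wild-type replicate 3 (13 lower and 1 higher, 14.0%).

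The wild-type response varied with gene length. Across the 53 genes the log2 fold change correlated with log2 gene length at Pearson's r = −0.57 (Spearman's rho = −0.49, n = 53 genes), and at −0.47 without the 2 longest, UTP20 and UTP10. Over all 6222 genes r was −0.06. In slt2 the same correlation across the 53 was 0.18. Genes are not independent replicates, and all points come from the same 6 libraries of a strain, so these are descriptions. The 15 genes over 2000 bases, which include UTP20, UTP10, RRP5 and RRP12, had a wild-type median of −0.53 and 7 of the 10 calls. The 20 genes over 1000 and up to 2000 bases had a median of −0.35 and 3 calls, and the 18 genes of 1000 bases or less had −0.24 and 0 calls. In slt2 the 3 length groups had medians of −0.42, −0.46 and −0.43, with 4, 7 and 4 calls. The share of all genes called at these lengths was not counted. GC content moved with the wild-type response too (r = 0.49 across the 53 genes and 0.25 over all genes). Its part in the result was not tested beyond the fit with its trend removed, given next. The trend with length or with GC was then removed in each library, in settings added after the data were seen. In wild type 11 and 14 of the 53 genes were called in these fits. Of all genes 6.19 and 7.41% were called, against 5.83% without the removal. The median of the 53 genes was −0.41 and −0.36, against −0.37, and that of the UTP genes −0.47 and −0.36, against −0.47.

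**Figure D4:**
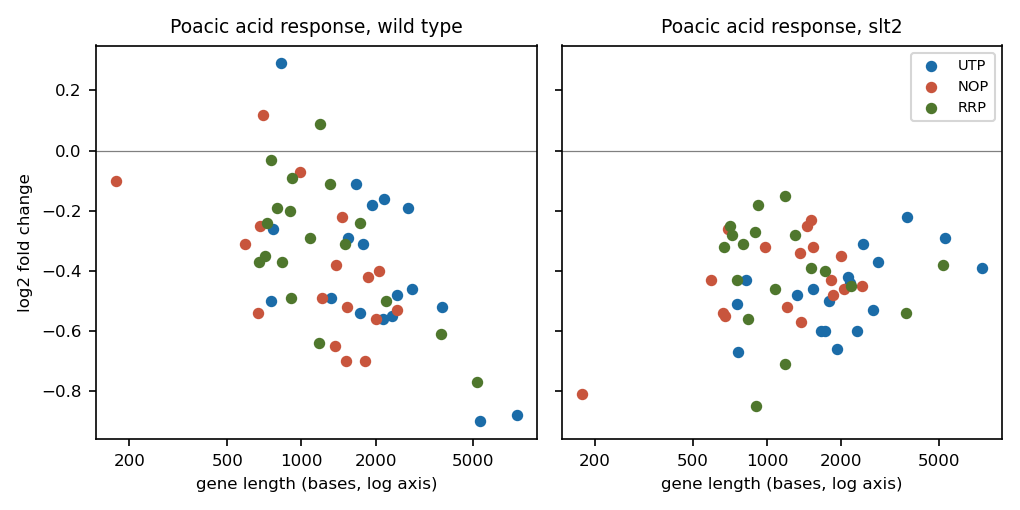
Gene length in bases (log axis) against log2 fold change with poacic acid in wild type (left) and slt2 (right), 1 point per gene. The wild-type points slope down to UTP10 (−0.90) and UTP20 (−0.88) at the right edge, and the slt2 points show no such slope.

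The promoters of the 53 genes were read from the R64 genome, since these genes are known to share a pair of upstream elements. The PAC element, core GATGAG, is bound by the repressors Dot6 and Tod6, and the RRPE element, core AAAATTTT, by Stb3. Both cores were searched on both strands from 250 bases before to 50 bases after the coding start; AAAATTTT reads the same on both strands, and neither core overlaps the other. GATGAG was present in 44 of 53 windows (83.0%), against 20.4% of 5978 coding genes with a window, and AAAATTTT in 31 (58.5%), against 9.03%. Both were present in 27 (50.9%), against 4.4%. Positions were taken from 1 match per gene, the nearest to the coding start among those that begin before it. Their median was −111 for GATGAG (43 genes) and −127 for AAAATTTT (31 genes), counted from the coding start. By class, both cores were present in 12 of 18 UTP, 9 of 17 NOP and 6 of 18 RRP promoters. Promoters of the exosome subunits named RRP held GATGAG in 3 of 7, AAAATTTT in 1 of 7 and both in 0 of 7. The 7 exosome genes with other names held GATGAG in 6, AAAATTTT in 3 and both in 2, so low counts were not shared by exosome genes in general.

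The stretches from 230 to 81 bases before the coding start are shown on the gene's strand for some genes that fell in wild type (UTP20, UTP10, UTP21, RRP5, RRP12 and NOP7), for the slt2 call with the smallest adjusted p (UTP23) and the one with the largest decrease (RRP36) and for 2 exosome genes with neither core (RRP42 and RRP45). The wild-type calls UTP4, NOP2, NOP58 and NOP9 are not shown, and of these NOP9 holds GATGAG alone. All stretches shown are examples. Capitals mark GATGAG, its reverse complement CTCATC, and AAAATTTT. They were read from chrII:227406-227555, plus strand (UTP20), chrX:217390-217539, minus strand (UTP10), chrXII:937314-937463, minus strand (UTP21), chrXIII:731204-731353, minus strand (RRP5), chrXVI:529493-529642, plus strand (RRP12), chrVII:695187-695336, plus strand (NOP7), chrXV:333362-333511, plus strand (UTP23), chrXV:851920-852069, minus strand (RRP36), chrIV:264191-264340, minus strand (RRP42) and chrIV:1020517-1020666, plus strand (RRP45), in the RefSeq copy of R64.
UTP20: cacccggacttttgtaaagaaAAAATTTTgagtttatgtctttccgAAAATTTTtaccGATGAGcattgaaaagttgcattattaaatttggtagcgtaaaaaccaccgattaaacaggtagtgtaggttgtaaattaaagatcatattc
UTP10: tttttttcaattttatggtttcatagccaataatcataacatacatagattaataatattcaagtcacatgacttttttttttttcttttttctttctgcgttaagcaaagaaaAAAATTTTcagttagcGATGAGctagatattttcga
UTP21: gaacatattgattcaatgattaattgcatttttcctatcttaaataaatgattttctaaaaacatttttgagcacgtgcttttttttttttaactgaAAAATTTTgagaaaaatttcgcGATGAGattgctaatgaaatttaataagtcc
RRP5: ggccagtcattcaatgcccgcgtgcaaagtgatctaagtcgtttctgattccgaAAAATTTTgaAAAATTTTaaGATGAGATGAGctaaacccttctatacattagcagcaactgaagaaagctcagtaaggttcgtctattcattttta
RRP12: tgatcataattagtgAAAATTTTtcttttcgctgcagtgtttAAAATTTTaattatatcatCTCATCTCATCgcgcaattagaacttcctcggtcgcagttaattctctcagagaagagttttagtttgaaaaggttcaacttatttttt
NOP7: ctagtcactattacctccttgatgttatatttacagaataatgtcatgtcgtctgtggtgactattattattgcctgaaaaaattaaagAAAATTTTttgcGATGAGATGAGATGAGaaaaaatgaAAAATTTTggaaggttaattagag
UTP23: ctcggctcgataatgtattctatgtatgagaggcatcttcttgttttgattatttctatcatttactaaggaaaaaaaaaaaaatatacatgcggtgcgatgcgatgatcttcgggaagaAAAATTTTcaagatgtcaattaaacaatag
RRP36: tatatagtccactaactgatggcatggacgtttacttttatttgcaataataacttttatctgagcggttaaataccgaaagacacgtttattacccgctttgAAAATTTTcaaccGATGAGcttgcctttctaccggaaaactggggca
RRP42: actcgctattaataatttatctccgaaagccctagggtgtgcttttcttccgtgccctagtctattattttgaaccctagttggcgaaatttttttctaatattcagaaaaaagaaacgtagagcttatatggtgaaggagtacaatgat
RRP45: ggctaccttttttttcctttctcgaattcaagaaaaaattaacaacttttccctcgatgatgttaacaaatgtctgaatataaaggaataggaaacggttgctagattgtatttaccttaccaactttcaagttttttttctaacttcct

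In UTP10, UTP21 and RRP36 a single AAAATTTT lies just upstream of a single GATGAG. In RRP5 a pair of AAAATTTT precedes a tandem GATGAGATGAG, and in NOP7 a triple GATGAG run stands between a pair of AAAATTTT. RRP12 holds the tandem in the opposite direction, and UTP23 has its GATGAG nearer the start, at −68. UTP4, called in both strains, carries neither core in this stretch, with AAAATTTT at −33 and GATGAG at 5, inside the coding sequence.

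Genes with both cores were 27 of the 53 and held 9 of the 10 wild-type calls and 9 of the 15 slt2 calls. Their medians were −0.49 and −0.45. Of the 17 with GATGAG alone 1 and 6 fell (−0.31 and −0.43), so in slt2 they fell about as often as genes with both. Of the 4 with AAAATTTT alone and the 5 with neither, 0 fell in either strain. Calls among all genes with these cores were not counted. The 5 with neither were RRP42, RRP45, RRP46, UTP22 and UTP30, and their medians were −0.19 and −0.31. No test across these groups was made, and the last 2 are small. Of the 6 longest genes all but UTP22 carry both cores, so among these length and promoter type went together. Both cores also occur in NOP1, NOP6, NOP15, RRP15, RRP36 and UTP23, all of 1000 bases or less. Their wild-type estimates ran from −0.54 (NOP15) to −0.03 (RRP15), and none was called. The parts of length and promoter type in the wild-type response were not tested. A match is a stretch of letters and no evidence of binding.

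**Figure D5:**
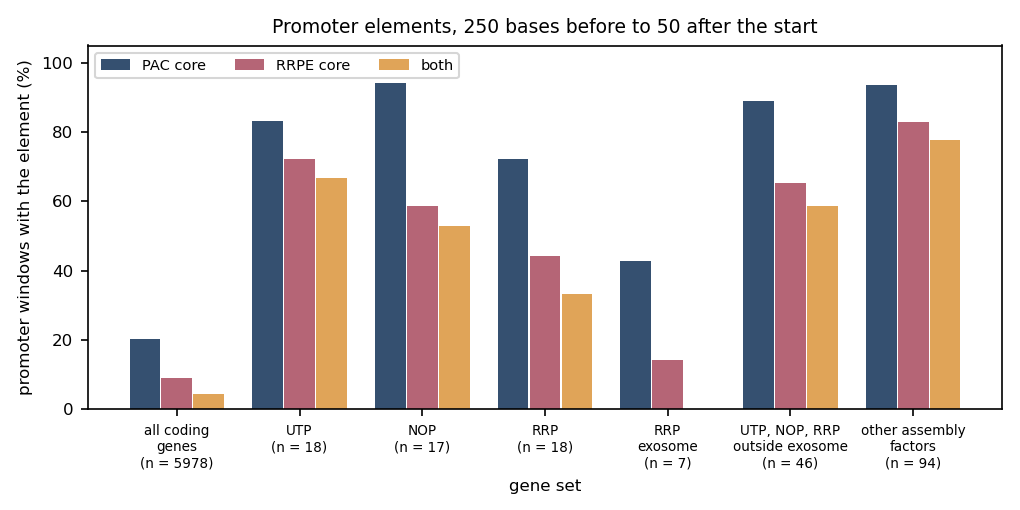
Bars give the percentage of promoter windows, 250 bases before to 50 after the coding start, that hold the PAC core GATGAG, the RRPE core AAAATTTT or both, for all coding genes with a window (n = 5978), each class and other assembly factors. All classes stand above the 20.4% and 9.03% of all coding genes. The group of exosome subunits named RRP is the lowest of the sets of assembly genes shown, with no promoter holding both. Exosome genes with other names are not shown.

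Ribosome assembly genes with other names fell too. Of 94 such genes 26 fell and 0 rose in wild type (median −0.40), where 1.96% of all genes were called lower. In slt2 47 fell and 0 rose (median −0.52), where 3.17% of all genes were called lower. The list was not tested against the 53 genes. Their promoters held GATGAG in 93.6%, AAAATTTT in 83.0% and both in 77.7%. In wild type the smallest adjusted p values were those of the helicase gene ECM16, whose product Dhr1 is activated by the UTP14 product (41.8 ± 4.1 to 27.4 ± 1.9 RPKM, −0.59, adjusted p = 0.00724), NIP7, a large-subunit factor (93.1 ± 26 to 45.5 ± 10 RPKM, −1.0, adjusted p = 0.00862), and SNU13, the partner of NOP1, NOP56 and NOP58 in box C/D snoRNPs (379 ± 81 to 205 ± 35 RPKM, −0.87, adjusted p = 0.0109). In slt2 they were those of NSR1, the yeast nucleolin (463, 482 and 528 RPKM to 299, 269 and 312 RPKM, −0.74, adjusted p = 0.00125), TSR1, a small-subunit factor (−0.67, adjusted p = 0.00453), and NHP2, a partner of NOP10 in box H/ACA snoRNPs (277 ± 29 to 182 ± 22 RPKM, −0.61, adjusted p = 0.00553).

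Genes for 9 regulators of ribosome synthesis had mostly small estimates. None passed in wild type and 1 passed in slt2, against 5.83% and 8.45% of all genes. TOD6, the PAC-binding repressor gene (II 117589–119166, plus strand), read 29.1, 28.7 and 26.4 RPKM in untreated and 13.8, 14.5 and 19.2 RPKM in treated slt2, with no overlap (−0.80, SE 0.22, adjusted p = 0.0371, limma with Benjamini-Hochberg correction). In wild type it read 30.4, 36.2 and 21.6 RPKM and then 25.1, 23.7 and 41.7 RPKM (0.02, adjusted p = 0.975), and the difference of its responses did not pass (−0.82, SE 0.31, adjusted p = 0.283). Its relative DOT6 read 40.4 ± 3.6 and 37.1 ± 6.6 RPKM in wild type and 46.1 ± 2.6 and 49.7 ± 3.7 RPKM in slt2 (−0.13 and 0.10, adjusted p = 0.636 and 0.731). STB3 (0.08 and 0.23), the activator gene SFP1 (−0.03 and 0.14) and the kinase gene SCH9 (−0.03 and 0.03) had log2 fold changes under 0.25 in both strains, as did FHL1 (0.18 and −0.15), IFH1 (0.03 and −0.23), RAP1 (−0.01 and −0.09) and ABF1 (−0.10 and 0.09).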

How the data were processed

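Strand-specific RNA-seq libraries of depleted RNA of budding yeast were sequenced, 12 in all and 3 per group. The deposited table gives RPKM per gene, written with decimal commas, and genome build R64 is named per the submitters' processing notes; the sources used here do not name the aligner or counting tool, nor say whether counting used strand. The labels' treatment text gives 1 h, while the growth text gives 2 h. Nothing in the labels says that the 3 libraries of a group came from separate cultures, so p-values measure only the spread between these samples, which may be technical. No 2 libraries held identical values (0 pairs).

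The 6222 genes that reached 1 RPKM in 3 or more libraries were fitted on log2(RPKM + 1) with limma 3.58.1 in R 4.3.3, with an intensity trend, robust variances and a mean for each group, all 12 libraries together. This scale understates changes of low genes. The 5 comparisons were treatment in each strain, the difference of these responses, and the strains with and without treatment. P-values were adjusted by Benjamini-Hochberg over all genes tested, with a threshold of 0.05, and the fit was tested on simulated data. Tables and figures were made with pandas 2.3.3 and matplotlib 3.10.9.

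Depth was recovered from the deposited RPKM values, whose low values were whole multiples of 1 read for 97.4 to 98.9% of genes (tolerance 1%). At 3 reads in 1 kb the floor is 0.285 to 0.866 RPKM, which covers counting error only. Gene positions were those of the table, and all 53 matched the RefSeq annotation of R64, from which promoters were read.

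The members and lists were chosen with earlier results of these data known, and the lists of other assembly factors, exosome genes and regulators follow textbook roles. Named genes were, per response, the 4 of each name class with the smallest adjusted p, any called higher, up to 6 called between strains or for the difference, the highest and lowest of each class, and the exosome subunits. From the other lists up to 3 genes per response were named, and all regulators. UTP18, RRP1, NOP53, NOP56, RRP14, UTP22 and NOP16 were named after their values were seen. In all 26 other settings were tried: 12 processing alternatives, 12 fits without 1 library each, and 2 added after the data were seen.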

Additional observations from a re-analysis of the deposited data

How the results depend on the processing

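The called genes kept their sign in every one of the 26 other settings, in both responses and between treated strains, and no result reversed. Counts of called UTP, NOP and RRP genes moved more than medians. Shares of all genes called are in brackets. In wild type (10) the count was 5 with equal sums over coding genes (5.93%), 2 with only the groups compared (2.91%), 21 with library weights and 2 with the rRNA share as covariate (3.86%). In slt2 (15) it was 7 with equal sums (8.12%), 24 with only the groups compared (9.31%), 34 with weights and 27 with the GC trend removed (11.6%). Between untreated strains (0) it was 10 with only those groups (11.7%) and 22 with weights. Between treated strains (6) it was 1 with only those groups (5.3%), 18 with weights, 1 with the rRNA covariate (5.61%) and 3 without trend and robust variances (7.31%). It was 2 there with either the length or the GC trend removed (8.69% and 9.43%). The share of all genes called moved too, with weights to 11.0, 18.3, 18.4 and 22.1% in these 4 comparisons, and 3 of the 22 and 1 of the 18 were higher. The cause of these shifts was not tested. Median log2 fold changes moved by more than their spread for UTP genes in wild type with the rRNA covariate (−0.28), in slt2 with equal sums for UTP (−0.40) and RRP genes (−0.32), and in slt2 without treated slt2 replicate 3 for UTP (−0.54) and RRP genes (−0.45) and without treated replicate 2 for RRP genes (−0.31). Equal sums moved the median of all genes to 0.12 and 0.10, and relative to it the 53 genes were at −0.39 and −0.46.

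With 1 library left out the counts ranged from 1 to 19 in wild type, 3 to 24 in slt2, 0 to 1 for the difference, 0 to 10 between untreated and 1 to 14 between treated strains. Class medians ranged in wild type from −0.52 to −0.33 (UTP), −0.52 to −0.37 (NOP) and −0.36 to −0.22 (RRP), and in slt2 from −0.54 to −0.43, −0.49 to −0.36 and −0.45 to −0.31.

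Whether replicate numbers pair the samples is not settled. Deviations of same-numbered untreated and treated libraries correlated at −0.136, 0.275 and −0.035 in wild type and 0.034, 0.232 and 0.335 in slt2. The last 2 were the highest of all pairings in slt2. In neither strain did every library correlate best with its own number: treated slt2 replicate 1 correlated at 0.186 with untreated replicate 2. With a replicate block the counts were 17, 17, 0, 0 and 4 in the order above. The shares of all genes called were then 10.8, 11.4, 2.88, 1.96 and 7.68%. With 3 libraries a group and the lowest gene at 22 reads, differences between strains may have been missed.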

Other observations

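NOP16 and RRP14, both listed with the large-subunit factors, had the treated wild-type libraries spread over a wide range. NOP16 read 37.4, 23.8 and 69.8 RPKM and RRP14 20.2, 10.0 and 40.1 RPKM in replicates 1 to 3, and in both genes replicate 3 was the highest, where it was the lowest library for 33 of the 53 genes. In untreated wild type NOP16 read 38.6, 28.3 and 44.5 RPKM and RRP14 21.6, 19.5 and 25.2 RPKM.

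Some of these genes lie close together. NOP8 and RRP40 are 1005 bases apart on chromosome XV, on the same strand with 1 coding gene between them, and RRP6 and UTP23 are 4558 bases apart on the same chromosome with 2 between. NOP8 had log2 fold changes of −0.22 and −0.25 in wild type and slt2 and RRP40 −0.24 and −0.28, none of them past the threshold. RRP6 had −0.50 and −0.45, and UTP23 −0.26 and −0.67.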
